A study of Xenopus laevis with 13 samples.

Results

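In a *Xenopus laevis* series that followed gene expression from the unfertilized egg to the tadpole, 83 of 43803 array probes had a dip at gastrulation: they were well above background on the 11 arrays other than stages 10.5 and 12, and dropped below all of these at both gastrula stages. The members were chosen by that dip. Each array's log2 processed signal was taken relative to its 75th percentile (a value of 0 is the brightness that 75% of the probes of that array do not exceed). A probe was a member where the higher of its stage 10.5 and stage 12 values lay at least 1 on this log2 scale, which is 2-fold, below the lowest of the other 11. The distance between these values is called the gap below, and the size of the dip itself is a description without a test. The 83 probes were 0.189% of all probes and 0.364% of the 22792 that were well above background on the 11 arrays. These 22792 serve below as the comparison set.

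The study compared 13 points of normal development, with 1 one-color Agilent array each: the unfertilized egg, the two-cell and 16-cell stages, blastulae at stages 8 and 9, gastrulae at stages 10.5 and 12, neurulae at stages 15 and 20, tailbud embryos at stages 25, 30 and 35, and tadpoles at stage 40. No genotype or agent was varied. Whole eggs or whole embryos were dejellied, raised in diluted Steinberg's solution and staged by the Nieuwkoop and Faber table, and the strain is not given in the sources used here. Every stage was read once, so no value below has a replicate error of its own.

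Gastrulation is the phase in which cells of the blastula move inward and the germ layers are laid out. The frog embryo starts with RNA stored in the egg and begins to transcribe its own genome broadly at the mid-blastula transition, shortly before gastrulation, while stored maternal RNAs are cleared or change in poly(A) tail length over the same period. The labeling kit copies RNA from its poly(A) tail, and the same mass of total RNA went into each labeling, so each value is a share of polyadenylated RNA in a whole embryo. In such bulk samples, fewer cells of a type and less RNA per cell cannot be told apart.

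The files pair each probe with a sequence accession but with no gene name, and 0 of the 28256 accessions matched the RefSeq gene table of the Xenopus_laevis_v10.1 assembly. Probes are therefore named by accession and probe ID, no role is given to any of them, and the labelled stages could not be checked against stage marker genes. The description labels of 8 samples name another stage than their titles do; the titles, which the stage labels share, were used. Raw 75th percentile signals were 941.8 in the egg, 1728 to 2008 from the two-cell stage to stage 9, 1665 at stage 10.5, 1198 at stage 12 and 1122 to 1693 from stage 15 on. The share of probes well above background was 69.19% at stage 10.5 and 68.81% at stage 12, against 58.96% in the egg, 63.92% to 66.39% from the two-cell stage to stage 9 and 70.65% to 79.52% from stage 15 on. Both gastrula arrays lay on the same slide as stages 9 and 15. The egg to stage 8 shared another slide, stages 20 to 35 one more, and stage 40 was scanned on its own slide.

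The median of the 83 members was 0.63 in the egg and then between -0.62 and -0.89 from the two-cell stage to stage 9. It stood at -2.74 at stage 10.5 and -3.06 at stage 12, returned to -0.83 at stage 15, and was between -0.38 and 0.16 from stage 20 to stage 40. The comparison set had a median of -0.2 at stage 9, -0.29 at stage 10.5, -0.4 at stage 12, then -0.52 at stage 15. The members' fall into stage 10.5 and rise after stage 12 were fixed by the rule. As scaled here, the median of the comparison set moved little over these stages, though its single probes did not stand still. From stage 9 to stage 15, 23.1% of them were at least 2-fold higher and 31.2% at least 2-fold lower.

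**Figure D1:**
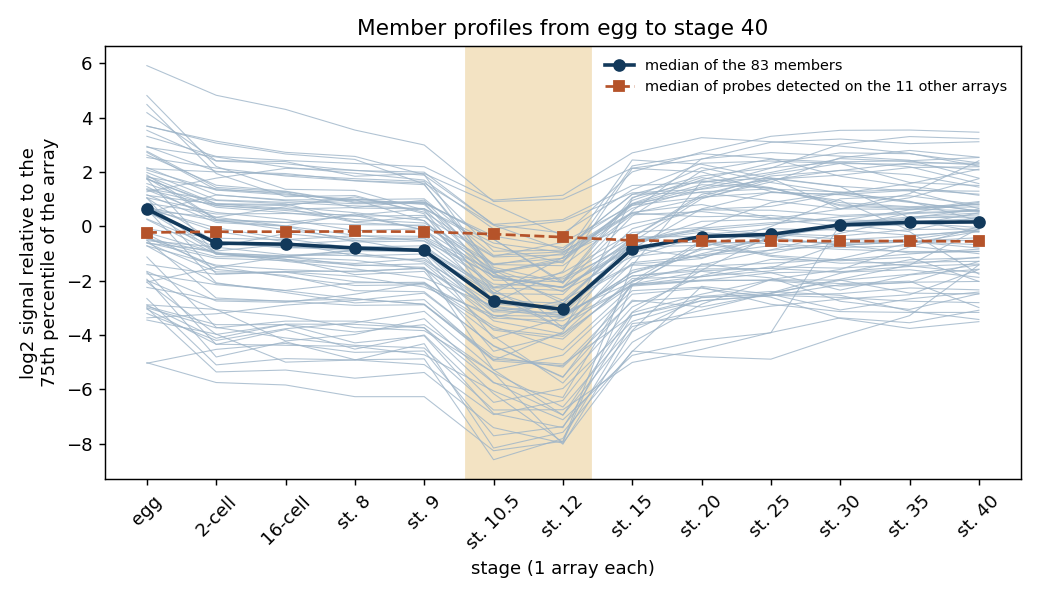
Profiles of the 83 members (thin lines) on 13 arrays from egg to stage 40, as log2 signal scaled to the array's 75th percentile, with their median (solid line) and the median of the 22792 probes well above background on the 11 other arrays (dashed line). The members' median was -0.89 at stage 9, -2.74 at stage 10.5, -3.06 at stage 12, then -0.83 at stage 15.

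The gap as measured ranged from 1.00 to 2.90 with a median of 1.28, and it was at least 2 in 11 members. In 17 members a gastrula signal was not well above background. In 8 of these the higher gastrula value, at stage 10.5, was well above background and sets the gap as measured. The dimmest signal detected at stage 12 stood at -5.718. Where the stage 10.5 value lay below that, the undetected stage 12 level could be the higher, so the gap is only bounded. This held for both probes of DT069905 (-6.16 and -5.76), Xl#S18078786_831 (BX845674, -6.06) and Xl#S14232619_2584 (BC044049, -5.74). In the rest of the 8 the gap can be read. In the other 9 neither gastrula signal was well above background, so the exact size of the gap cannot be read. In most of them the lowest of the 11 values lay less than 1 above -5.718, or below it. For these a gap of 1 cannot be shown. They were Xl#S21696652_7960 (-4.91), which had the widest gap, Xl#S14232619_2661 (-5.0), Xl#S20966363_1404 (-5.01), Xl#S21627518_1066 (-5.04), Xl#S22416157_2834 (-5.1), Xl#S26452715_815 (-5.59) and Xl#S21057548_1031 (-6.27). The SD of a member over the 11 arrays ran from 0.16 to 3.72 with a median of 0.72. Against stages 9 and 15 alone, the arrays that share a slide with both gastrula stages, the gap had a median of 1.42. Both stages are among the 11 arrays of the rule, so this gap could not be smaller than the first. It is therefore no separate support for the dip.

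Just inside the threshold stood Xl#S19608003_516 (BP690978) and Xl#S13831124_1340 (AB080021), each with a gap of 1.02, and Xl#S13725568_538 (BJ078280) with a gap of 1.00. Just outside stood Xl#S13695115_416 (BJ088193) and Xl#S17006367_583 (BJ639474), each at 0.99, and Xl#S20966550_566 (BC073054) at 0.97. The last of these had values of -1.47 and -1.59 at stages 10.5 and 12 and a lowest value of -0.5 elsewhere, so the threshold cut through a continuous range of gaps.

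At the bottom of the dip most members could still be measured. Of the 83, 66 were well above background at both gastrula stages, 8 at stage 10.5 but not at stage 12, 0 at stage 12 alone and 9 at neither. In the comparison set 0.18% of probes were not well above background at stage 10.5 and 0.812% at stage 12; these shares and the members' counts both follow level, which the rule used. The dip, taken as the mean over the 11 arrays against the mean of both gastrula arrays, was in the 66 members measured at both stages 2.81-fold to 18.4-fold, with a median of 5.66-fold. For the 9 measured at neither, only a lower bound can be given, set against the dimmest signal still detected on each gastrula array, or the probe's own signal where that was higher, and these bounds ran from 3.36-fold to 16.0-fold with a median of 7.65-fold.

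BC043747 was represented by the member with a deep dip and high signal, Xl#S13831463_2422. Its processed signals were 5440 in the egg, 8819 at the two-cell stage, 6657 at the 16-cell stage, 5505 at stage 8 and 5760 at stage 9. They were 584 at stage 10.5 and 283 at stage 12, then 1682 at stage 15, 6254 at stage 20, 9205 at stage 25, 9191 at stage 30, 8118 at stage 35, then 5785 at stage 40. Relative to the 75th percentile the dip was 14.1-fold, and stage 15 was the lowest of the 11 other arrays, so the level was only partly regained there.

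Both probes of BJ086518 dipped together. Xl#S13693440_470 had relative values of 1.05, 0.51, 0.25, -0.16 and -0.09 from the egg to stage 9, then -2.74 and -2.83 at the gastrula stages, and -0.4, 1.24 and 1.78 as the lowest, median and highest of the 6 later arrays. Its raw processed signal was 1881 at stage 9, 250.0 at stage 10.5, 168 at stage 12, then 862 at stage 15. The dip was 11.1-fold for this probe and 12.2-fold for Xl#S13693440_397, whose gastrula values of -1.86 and -2.24 compare with a lowest value of 0.37 on the other arrays. Both probes had their lowest remaining value at stage 15.

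AW640446 was likewise read by 2 members. Xl#S13670398_452 stood at 0.68, -0.19, -0.57, -1.09 and -1.02 from the egg to stage 9, at -4.13 and -3.35 at stages 10.5 and 12, and between -0.98 and -0.09 with a median of -0.26 later. Xl#S13670398_339 stood at 0.25, -1.03, -1.21, -1.78 and -1.66, then -4.6 and -3.96, then between -1.62 and -0.71 with a median of -0.92. The dips were 10.3-fold and 9.39-fold. In both probes the value was lower at stage 10.5 than at stage 12, unlike BJ086518 and BC043747, where stage 12 was the lower.

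Several of the widest gaps belonged to probes not well above background at the gastrula stages. Xl#S21696652_7960 (BC081254) had the widest gap, 2.90: its signal was 68.1 at stage 9, 4.34 at stage 10.5, 5.34 at stage 12, then 95.3 at stage 15, and its mean over the 11 arrays was at least 6.4-fold above the gastrula level. For the other probe of that accession, Xl#S21696652_7920, the signals at these stages were 125, 18.6, 19.1 and 101, and the bound was at least 8.63-fold. The larger gap of the first probe thus rests on signals too dim to be told from background.

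DT055144 showed the same pattern. The signal of Xl#S26452715_690 was 122 at stage 9, 14.0 at stage 10.5, 7.06 at stage 12, then 116 at stage 15, a dip of at least 10.3-fold, while that of Xl#S26452715_815 was 48.0, 9.79, 4.73 and 47.5, at least 3.36-fold. For BC044049, the relative value of Xl#S14232619_2661 was -4.32 at stage 9, -8.16 at stage 10.5, -7.58 at stage 12, then -4.61 at stage 15, a dip of at least 5.74-fold, and that of Xl#S14232619_2584 was -3.4, -5.74, -6.95 and -3.84, with stage 10.5 alone measured. The signal of Xl#S21627518_1066 (BC080404) was 82.9, 7.97, 7.23 and 59.3, a dip of at least 7.65-fold. For these probes only Xl#S14232619_2584 had a measured gastrula level, at stage 10.5.

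DT069905 was read by 2 members that were measured at stage 10.5 and not at stage 12. Xl#S26459740_617 had relative values of -2.9 in the egg, -4.12 to -3.6 from the two-cell stage to stage 9, -6.16 at stage 10.5, -7.95 at stage 12 and -2.19 to -0.59 from stage 15 on. Xl#S26459740_513 had -3.0 in the egg, -5.76 at stage 10.5, -6.3 at stage 12 and -2.02 to -0.53 from stage 15 on. Here the level after the dip was above the level before it on all 6 later arrays.

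Among members named for their high signal, Xl#S22811521_1410 (BC088936) had relative values of 5.91, 4.82, 4.3, 3.54 and 2.99 from the egg to stage 9, 0.91 and 1.0 at stages 10.5 and 12, and 2.14 to 3.21 with a median of 3.07 later. Its dip was 5.88-fold and followed a decline over the earlier arrays. Xl#S26462293_727 (DT075155) stood at 1.94 at stage 9, 0.8 at stage 10.5, -0.35 at stage 12, then 2.0 at stage 15, a dip of 6.15-fold. Xl#S22300546_744 (BC084822) stood at 1.99, 0.06, -0.25 and 1.34 (4.77-fold) and Xl#S19618143_490 (BP680838) at 2.19, 0.96, 1.14 and 2.7 (3.14-fold). These 4 were well above background on all 13 arrays, so their dips do not rest on dim spots.

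The steadiest member outside gastrulation, singled out after its values were seen, was Xl#S18077656_842 (BX843948). Over the 11 other arrays its SD was 0.16, with values from -1.01 to -0.46, and it stood at -2.13 and -2.23 at the gastrula stages. Its processed signal was 1457 at stage 9, 380.0 at stage 10.5, 255 at stage 12, then 697 at stage 15. A dip of 2.81-fold, the shallowest among the 66 members measured at both stages, was thus set in a profile otherwise nearly level as scaled here. The mean over stages 15 to 40 minus that from the two-cell stage to stage 9 was -0.1. It was -1.05 with median, -0.29 with quantile and -0.02 with spike-in scaling. The other probe of BX843948, Xl#S18077656_759, had a gap of 0.32 and went from 0.85 at stage 8 to -0.51 at stage 40.

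**Figure D2:**
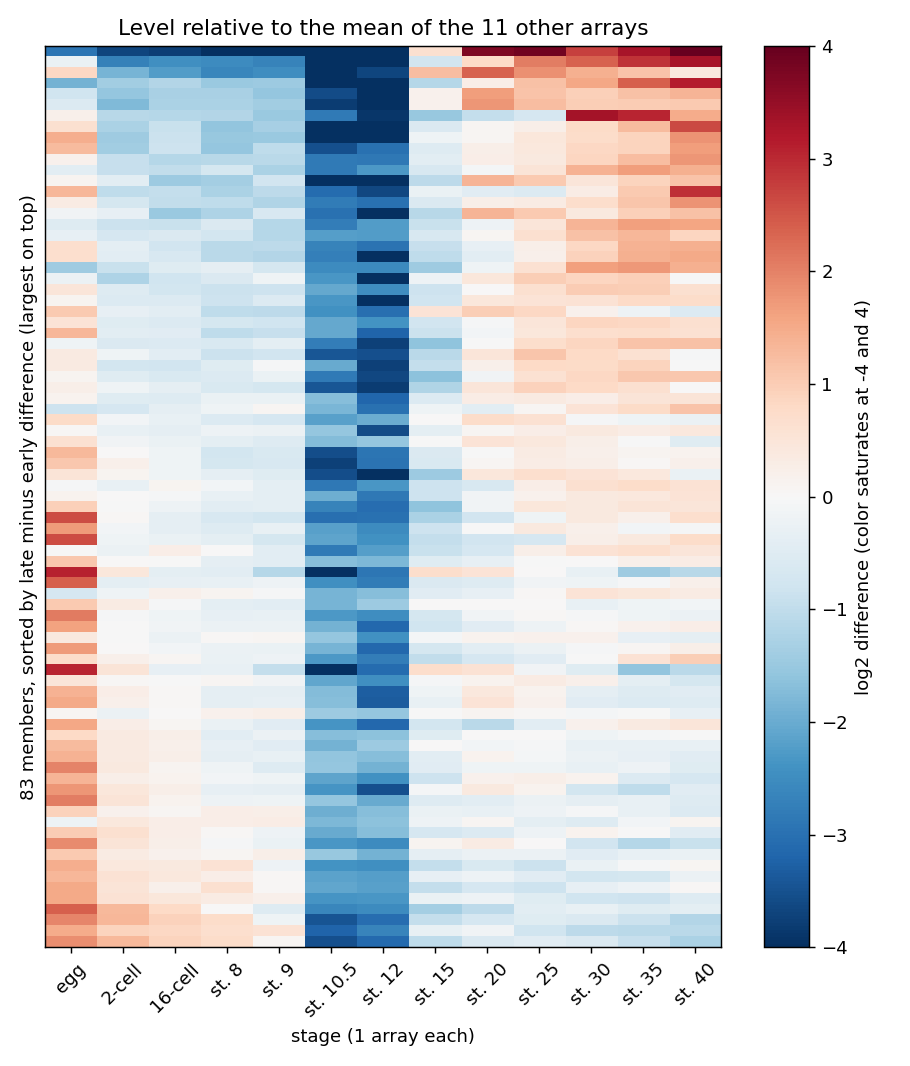
Each row is one of the 83 members and each column one array from egg to stage 40; color gives the log2 value minus the member's own mean over the 11 arrays other than stages 10.5 and 12, saturating at -4 and 4. Rows are sorted by the late minus early difference, and the 2 gastrula columns are low in every row because the rule chose them so.

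Between the gastrula stages the rule leaves the direction free. Among the 66 members measured at both, 23 were higher and 43 lower at stage 12 than at stage 10.5, where 53.2% of the comparison set measured at both was higher and 46.8% lower. At least 2-fold differences were few: 3 members were higher at stage 12 (13.4% of the comparison set was) and 9 were lower (14.9%). The median difference was -0.15, against 0.07 in the comparison set. For most members stages 10.5 and 12 thus differed by less than 2-fold. Under other scalings the counts were 1 higher and 14 lower with median, 2 and 13 with quantile and 1 and 14 with spike-in scaling, so the 3 named next rest on the scaling used.

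The 3 members at least 2-fold higher at stage 12 were both probes of DR728610 and the single member of BJ055803. Xl#S25819308_729 (DR728610) stood at 0.59 at stage 9, -2.47 at stage 10.5, -1.15 at stage 12, then 2.44 at stage 15, and Xl#S25819308_689 at 0.46, -2.8, -1.66 and 2.13. Xl#S13730279_602 (BJ055803) stood at -2.7, -4.93, -3.89 and 1.03. All 3 were also at least 2-fold higher at stage 15 than at stage 9. Among the 9 that were lower at stage 12, both probes of CB561159, of BC070847 and of DT074691 were present; Xl#S26462044_609 (DT074691) went from -0.37 at stage 9 to -1.68 at stage 10.5 and -3.73 at stage 12, and stood at -0.53 at stage 15.

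The 83 probes came from 57 accessions. In 26 accessions both probes of the array were members (52 probes), and 31 accessions had 1 member, of which 8 had no other probe on the array. Of the 23 other probes that shared an accession with a member and were not members themselves, 16 also lay below all 11 arrays at both gastrula stages, that is, had a gap above 0. In the comparison set 3.22% of probes had one. Probes of 1 accession were hybridized with the same RNA samples on the same arrays and so are no replicates of a stage, and the files do not say whether their sequences overlap.

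Within the 26 pairs the difference between both probes of an accession had an SD over the 13 arrays of 0.0614 to 0.864 with a median of 0.137, where the 6804 such pairs well above background on all arrays had a median of 0.163. Across the 13 arrays the correlation within a pair was 0.73 to 0.999 with a median of 0.992, the lowest for AB080021; the arrays are single stages and the dip that chose both probes adds to these values. The probes of a pair lay 8 to 423 rows apart on an array of 532 rows, with a median of 137.5, so they were not neighbours on the glass. Members were spread over the array, with 17, 24, 22 and 20 in 4 equal bands of its rows and 17, 18, 25 and 23 in 4 equal bands of its columns. Of the 1079 member values, 0 carried a flag for non-uniform spots, population outliers or saturation. These flags were rare throughout, in 0.00825%, 0.0% and 0.0% of all values, so the 0 does not set the members apart.

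**Figure D3:**
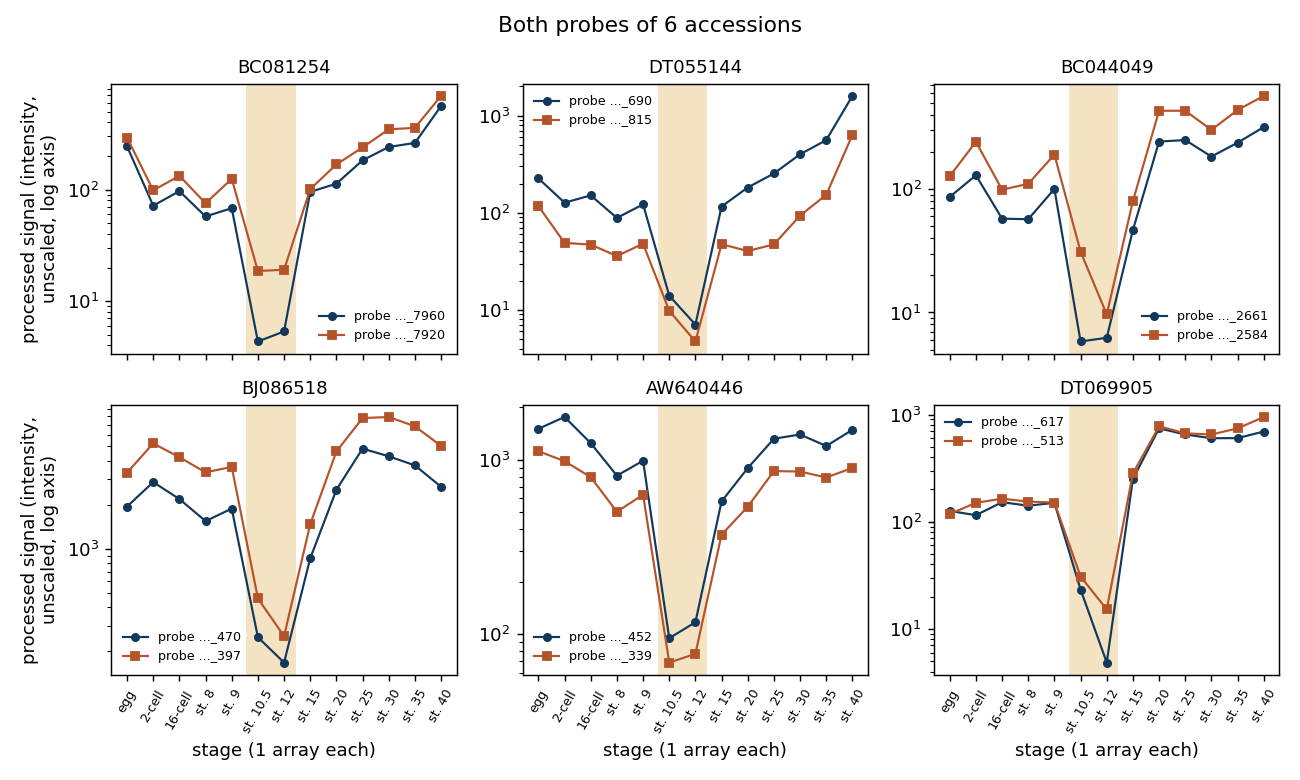
Processed signal (intensity, unscaled, log axis) of both member probes of 6 accessions on the 13 arrays from egg to stage 40, with 1 line for each probe. For BJ086518 the signal of probe Xl#S13693440_470 was 1881 at stage 9, 250.0 at stage 10.5, 168 at stage 12, then 862 at stage 15, and the second probe ran parallel to it.

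The other 7 of these 23 probes did not lie below all 11 arrays at both gastrula stages. For BJ091882, the member Xl#S13698804_498 stood at 1.59 at stage 9, 0.04 at stage 10.5, -0.87 at stage 12, then 1.17 at stage 15, while Xl#S13698804_458 of the same accession stood at -2.67, -2.27, 0.54 and 0.38. For BC093538, the member Xl#S24455970_3204 stood at 0.64, -0.76, -1.35 and 2.22, while Xl#S24455970_3163 stood at -1.11, -3.02, -5.43 and -5.33 and was still at -2.12 at stage 40. For BC043747 the second probe, Xl#S13831463_1959, stood at -1.63, -3.31, -6.24 and -3.97, so it dipped too, with stage 15 below stage 10.5. These accessions were chosen after their values were seen. The BJ091882 probes moved in opposite directions from stage 10.5 to stage 12, and which of them reads the intended transcript cannot be told from these files.

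**Figure D4:**
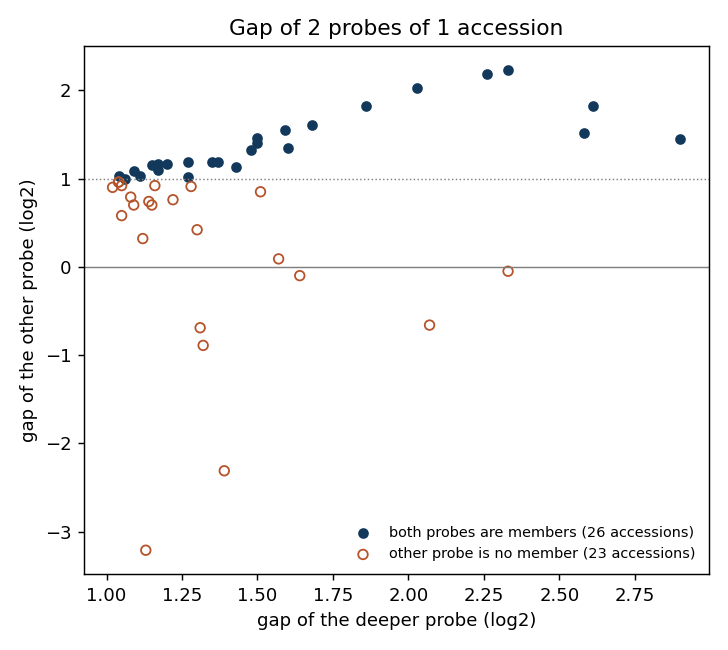
Gap of the deeper probe of an accession (horizontal axis, log2) against the gap of its other probe (vertical axis, log2), for 26 accessions whose probes were both members (filled) and 23 with a nonmember probe (open). The 23 open points ran from -3.21 to 0.96, and 16 of them lay above 0.

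Before the dip, and as scaled here, most members were lower on each array than on the one before. From the egg to the two-cell stage 78 of 83 were lower, where 61.5% of the comparison set was, and 39 were at least 2-fold lower (26.2%) with 0 at least 2-fold higher (18.1%). The median step was -0.99, against -0.39. This step depended on the scaling: with arrays scaled to their spike-in controls, 27 members were at least 2-fold higher at the two-cell stage and 5 at least 2-fold lower. Of the comparison set 58.8% was then higher and 0.974% lower by that measure. The median step with spike-in scaling was 0.64 in the members and 1.24 in the comparison set, so the members again had the lower median. The egg array stood apart, with the lowest 75th percentile signal of the 13. From the two-cell to the 16-cell stage 64 members were lower (57.9% of the comparison set), from there to stage 8 61 were lower (54.1%), and to stage 9 49 were lower (41.1%). Over the whole span from the egg to stage 9, 53 members were at least 2-fold lower (33.9%) and 0 at least 2-fold higher (21.4%). That span turned with the scaling too: the median was -1.35 as scaled here and 0.07 with spike-in scaling, under which 10 members were at least 2-fold lower and 14 at least 2-fold higher. Of the comparison set 2.36% was then at least 2-fold lower and 48.3% at least 2-fold higher, with a median of 0.94.

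After gastrulation, and as scaled here, the members came back close to where they had been at stage 9. At stage 15, 70 of 83 were within 2-fold of their stage 9 value, which 45.7% of the comparison set was, 9 were at least 2-fold higher (23.1%) and 4 at least 2-fold lower (31.2%). The median difference was -0.25, against -0.22 in the comparison set. It was -1.02 against -0.99 with median, -0.42 against -0.5 with quantile and -0.85 against -0.82 with spike-in scaling. The rule sets both stages at least 2-fold above the gastrula arrays and does not fix their difference. A probe low at either stage had little room to meet it, so the rule partly shapes this contrast. The count moved with the scaling, from 13 members outside 2-fold to 46 with median, 20 with quantile and 34 with spike-in scaling. Of the comparison set 13.3% was at least 2-fold higher and 49.7% lower with median scaling. These shares were 18.6% and 37.4% with quantile and 14.9% and 45.6% with spike-in scaling. The 4 that were lower were both probes of BC081188, Xl#S25791671_1010 (BC099325) and Xl#S21561500_2296 (BC079782); Xl#S21696673_1407 (BC081188), for example, stood at 0.64 at stage 9, -1.74 at stage 10.5, -2.72 at stage 12, then -0.58 at stage 15.

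Most members rose further after stage 15. From stage 15 to stage 20, 76 of 83 members were higher, where 40.5% of the comparison set was, and 17 were at least 2-fold higher (4.97%) with 0 at least 2-fold lower (7.07%). From stage 20 to stage 25, 57 were higher (45.2%). From stage 15 to stage 40, 40 members were at least 2-fold higher (18.0%) and 4 at least 2-fold lower (29.2%), with a median of 0.97; with spike-in scaling 72 were at least 2-fold higher and 0 lower, where 47.9% and 5.39% of the comparison set were. Those 4 were both probes of DR728610, which were among the 9 that came back above their stage 9 level, Xl#S24455970_3204 (BC093538) and Xl#S13748103_550 (BJ055377). Stages 15 and 20 lay on different slides, so slide and stage cannot be told apart in that step. Stage 15 was the lowest of the 11 arrays in 29 members, where it was so in 12.6% of the comparison set. The 17 members at least 2-fold higher at stage 20 than at stage 15 were 17 or 18 under the other 3 scalings.

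The 1 contrast that left out both gastrula arrays and the egg compared the 6 late arrays, stages 15 to 40, with the 4 early arrays, two-cell stage to stage 9, as the study grouped them. With limma across all 43803 probes and Benjamini-Hochberg adjustment, 26 of 83 members were higher in late stages (31.3%), 12 were lower (14.5%) and 45 did not pass (54.2%), at an adjusted p threshold of 0.05; 41 passed at an unadjusted p under it. Of all probes 33.2% were higher and 28.8% lower, and of the comparison set 25.4% were higher and 43.1% lower. As scaled here, the members' share of higher calls was near that of all probes, and their share of lower calls was below both. The rule bears on these shares, because all 10 arrays of the contrast were among the 11 whose lowest value it used. A probe with low late values could fail the rule for that reason. The shares therefore only describe the chosen probes. Stages stood in for replicates, so the p-values set each difference against the spread between stages of a period. They do not set it against replicate error.

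The scaling set the balance of these calls. Against 26 members higher and 12 lower, there were 9 higher and 38 lower with median scaling. There were 16 and 17 with quantile normalization, and 15 and 4 with spike-in scaling. Of all 43803 probes, 14523 were higher and 12625 lower as scaled here. These counts were 9713 and 22035 with median, 10894 and 18492 with quantile, and 13418 and 10830 with spike-in scaling. The members' share of higher calls was below that of all probes with each of these 3 scalings. The median of all probes' differences moved from 0.26 to -0.69, -0.39 and 0.34. Under all 3 of these scalings 6 members kept the higher call and 4 the lower. With the slide as a block the contrast rested on stages 9 and 15, the sole early and late arrays of a shared slide. It then sets 1 array against 1, with their spread assumed to be that of the stages within the other slides, and 4 of the 26 and 0 of the 12 passed.

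The 4 that passed in this form, with the limit just given, were Xl#S21057548_1031 (BC074489), Xl#S13730279_602 (BJ055803) and both probes of DT069905, singled out after their values were seen. Xl#S21057548_1031 had the largest rise, 7.07 on the log2 scale (SE 0.63, limma adjusted p = 3.02e-06): its signal was 22.4 at stage 8, 25.9 at stage 9, 5.42 at stage 10.5, 4.98 at stage 12, 418 at stage 15, 3509 at stage 20, then 9007 at stage 40. Its dip, at least 16.0-fold against the mean of the 11 arrays, was set mainly by these late values, since the early signals were near the lower end of detection. BJ055803 rose by 3.70 (SE 0.343, adjusted p = 4.15e-06), from a signal of 307 at stage 9 through 54.7 and 81.0 to 2336 at stage 15 and 5011 at stage 20. DT069905 rose by 2.46 (SE 0.278, adjusted p = 1.96e-05) in probe Xl#S26459740_617 and by 2.49 (SE 0.264, adjusted p = 1.17e-05) in Xl#S26459740_513. In BJ055803 and both probes of DT069905 the dip lay between a lower level on the 4 early arrays and a higher late level. The egg is not among the early arrays. In BJ055803 it stood at 0.63, within the late range of 0.2 to 2.16. In the DT069905 probes it stood at -2.9 and -3.0, below all late values. Xl#S21057548_1031 stood at -6.27 at stages 8 and 9, where the dimmest detected values were -6.441 at stage 10.5 and -5.718 at stage 12. For this probe a 2-fold drop below its level at stages 8 and 9 therefore cannot be shown.

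Over the 26 late-higher members, which came from 18 accessions, the differences were 0.62 to 7.07 with a median of 1.57, and stage 40 was the highest of 13 arrays in 12. Their median value was -1.82 in the egg, -3.26 at stage 9, -5.34 at stage 10.5, -6.14 at stage 12 (below the dimmest detected signal there), -2.01 at stage 15, then -0.05 at stage 40. Of the deep dips above, Xl#S21696652_7960 (BC081254) rose by 1.94 (SE 0.355, limma adjusted p = 0.00068), Xl#S26452715_690 (DT055144) by 2.0 (SE 0.529, adjusted p = 0.00692) and Xl#S21627518_1066 (BC080404) by 2.61 (SE 0.697, adjusted p = 0.00737). Each of these 3 lost the call with quantile normalization, with normexp background correction and with the slide as a block. Xl#S26452715_690 also lost it with median scaling, and all 3 kept it with spike-in scaling. For BC044049 the difference was 1.64 in Xl#S14232619_2661 (SE 0.451, adjusted p = 0.0087) and 1.56 in Xl#S14232619_2584, and it turned to -0.29 and -0.44 with the slide as a block, since stage 15 was still below stage 9.

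The 12 late-lower members came from 9 accessions, with differences of -1.55 to -0.46 and a median of -0.8, and the egg was the highest array in 11 of them. Both probes of BC099325 fell: Xl#S25791671_1050 by 1.48 (SE 0.282, limma adjusted p = 0.000872) and Xl#S25791671_1010 by 1.55 (SE 0.263, adjusted p = 0.000406). Values of Xl#S25791671_1050 were 3.69, 3.06, 2.66, 2.46 and 1.55 from the egg to stage 9, at -1.72 and -1.3 at the gastrula stages, and between 0.56 and 1.24 with a median of 0.97 later. Xl#S18082710_874 (BX850117) fell by 1.48 (adjusted p = 0.000236), from -1.51 at stage 9 through -5.29 and -4.74 to -2.37 at stage 15. The nonmember probe of BX850117, Xl#S18082710_533, went the other way. From the two-cell stage to stage 9 it read -1.6, -1.76, -1.56 and -2.11. Its late values, in stage order, were 0.54, 0.64, -0.09, -0.21, 0.03 and -0.07. The lower late level of BX850117 therefore holds for 1 of its 2 probes only. These accessions were singled out after their values were seen. In the 3 member probes named here all 6 late values lay below the lowest early value.

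The 45 members that passed in neither direction had differences of -0.51 to 2.01, and the egg was the highest array in 29 of them. Over all 83 members, the highest array was the egg in 42 (35.5% of the comparison set), stage 40 in 17 (9.05%) and stage 35 in 9 (3.08%), and it was a gastrula stage in 0 because of the rule. The place of the egg rested on the scaling: it was the highest in 60 members with median, 38 with quantile and 4 with spike-in scaling (49.0%, 33.7% and 1.89% of the comparison set), and with spike-in scaling in 0 of the 12 late-lower members and 4 of the 45. BJ086518, AW640446 and BC043747, with dips of 9.39-fold to 14.1-fold, belong to this group: the late minus early difference of Xl#S13693440_470 was 0.87 (SE 0.389, limma adjusted p = 0.0751), that of Xl#S13670398_452 was 0.37 (SE 0.244, adjusted p = 0.209) and that of Xl#S13831463_2422 was 0.29 (SE 0.399, adjusted p = 0.534). A missed threshold does not show equal levels before and after.

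**Figure D5:**
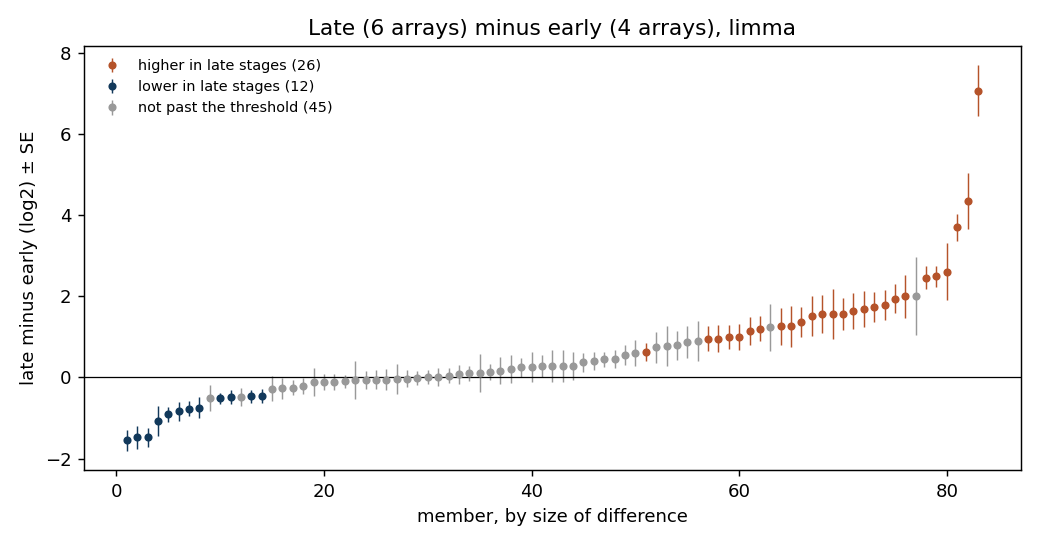
Late minus early difference in log2 with its SE (limma, 6 late against 4 early arrays) for the 83 members in order of size, colored by call at an adjusted p of 0.05. The 26 members called higher ran from 0.62 to 7.07, the 12 called lower from -1.55 to -0.46, and 45 were not called.

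By the same form of rule, 240 probes peaked at both gastrula stages, and 150 probes dipped at stages 15 and 20, with a median gap of 1.2 and a largest gap of 2.47. These counts and the 83 gastrula dips come from unlike pools of probes. A peak needed detection on the 2 gastrula arrays only, and each dip needed it on its own 11 other arrays. The counts therefore do not rank the patterns, and no test was made. Of the member accessions, 40.4% were of the BC kind, against 41.3% of the accessions in the comparison set. The accessions that the study lists as glycan synthesis genes matched 2 on the array and 0 among the members. With so few matches, whether such genes are among the members cannot be told.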

How the data were processed

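Total RNA of whole eggs or embryos was labeled with Cy3 by the authors and hybridized to 13 one-color Agilent arrays. The deposited processed signal is an intensity from Feature Extraction 10.7.3.1, background-subtracted by that software; the deposited series table held the same 587860 intensity values. Control spots (1417 of 45220 per array) were left out. No signal was under the methods' floor of 1. After the study's methods, each array's log2 values were taken relative to its 75th percentile. All log2 values were computed here from the deposited intensities. The late against early contrast used lmFit and eBayes of limma 3.58.1 under R 4.3.3, a step tested on simulated data. Other steps used Python 3.11.15 with numpy 2.4.6 and pandas 2.3.3.

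Members, lists and tests were chosen with earlier results of these data known. Named are the 10 members with the largest gap, the 5 with the highest mean, 3 on either side of the threshold and the 5 accessions with several members and the largest gap; others are said to be chosen afterwards. Gene and marker lists could not be applied without gene names. Alternatives were median, quantile and spike-in scaling, normexp background correction (offset 50), other dip depths and filters, the slide as a block, and leaving out each array.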

Additional observations from a re-analysis of the deposited data

Results flagged for a closer look

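Among 48 sets of 4 early or 6 late arrays, 46 of them from the 23 named probes and 2 from the median over the members, 3 held an array far from the others by Dixon's ratio at its 95% critical value, which chance gives in about 1 in 20 sets. For Xl#S21696652_7960 (BC081254) the 16-cell stage stood at -4.25, with the other early arrays between -4.91 and -4.81. For Xl#S14232619_2661 (BC044049) stage 15 stood at -4.61, with the other late arrays between -3.08 and -2.21. For Xl#S13670398_452 (AW640446) stage 15 stood at -0.98, with the others between -0.33 and -0.09. In the latter 2 the array nearest to gastrulation was the lowest of the late arrays.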

How the results depend on the processing

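No paired analysis was possible because no stage was read by more than 1 array. The member count of 83 was 46 with normexp (45 shared), 43 accessions with the mean over an accession's probes, 236 with a dip of 0.5, 11 with a dip of 2 and 204 against stages 9 and 15 alone. Leaving out 1 array gave 83 to 129, the highest without stage 15. Using fewer of the 11 arrays, here or with stages 9 and 15 alone, only loosens the rule. These counts therefore could not fall below 83. With median scaling 44 of the 83 still met the rule, 66 did under quantile and 61 under spike-in scaling, so many memberships depend on the scaling. Late against early calls numbered 38 in all: 19 with spike-in scaling, 22 with normexp, 6 with the slide as a block and 28 to 51 without 1 array. Higher calls were 9 with median, 16 with quantile and 15 with spike-in scaling, 14 with normexp, 4 with the block and 18 to 39 without 1 array (39 without stage 15). Lower calls were 38 with median and 4 with spike-in scaling, 2 with the block and 8 to 12 without 1 array. Members outside 2-fold between stages 9 and 15 were 46, 20 and 34 with median, quantile and spike-in scaling; with spike-in scaling those outside 2-fold were 24, not 53, from the egg to stage 9 and 72, not 44, from stage 15 to 40. These were chosen after seeing the data. By the scanner's other detection flag 6 members, not 17, went undetected at a gastrula stage. Of 23 named probes the late minus early sign turned in 9 under median and 1 under quantile scaling and in 9 with the block; the turned value or the original passed the threshold for Xl#S19608003_516 with median scaling (-0.87) and, with the block, for Xl#S14232619_2661 (-0.29), Xl#S13831463_2422 (-0.97) and Xl#S14232619_2584 (-0.44). Beyond the block's construction the cause was not tested. Of 391 alternatives for these probes, 337 left the side of the threshold as it was. With 1 array per stage, and the gastrula arrays on 1 slide, a stage and its array cannot be told apart; dim gastrula signals give bounds only.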
